A study of Mus musculus with 2 samples.

Results

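A group of 35 genes made by visceral endoderm and by liver was examined in 2 mouse teratoma libraries. Every row of the deposited expression table whose gene symbol was on the list was taken, and all 35 symbols were found among 45777 rows. Expression is given in TPM, which divides read counts by transcript length and scales them to a fixed sum per library. Of the 35 genes, 30 reached a TPM of 1 in either library, and 18 reached 10.

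The teratomas arose from E14, a mouse embryonic stem cell (ESC) line, and from E14-Sox2TA/WT, an E14 derivative in which threonine 258 of the transcription factor Sox2 was replaced by alanine with CRISPR/Cas9. The replacement is on 1 allele, the other Sox2 allele is wild type in these cells, and the line was grown from sorted single cells, so a property of the clone cannot be told apart from the mutation. The edited clones were normally kept with inhibitors added to the serum and leukemia inhibitory factor used for E14. The inhibitors were removed before experiments, and this culture history cannot be told apart from the mutation either. ESCs in Matrigel were injected under the skin of BALB/c-nu mice, 3 mice per group, and tumours were collected 14 days later. Polyadenylated RNA gave 1 library per group, and the sources do not state whether a library holds a single tumour or several. Host cells in a teratoma are also mouse cells, so their reads are not separated from those of the graft. The labels give teratoma as the tissue, although the protocol beside it describes extraction from ESCs.

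Visceral endoderm is the extraembryonic epithelium that wraps the early embryo and later lines the yolk sac. Before the liver forms, it secretes serum proteins and apolipoproteins, and it takes up nutrients through a complex of cubilin, amnionless and megalin. Hepatocytes, which arise from definitive endoderm, make most of the same plasma proteins, and many of these genes carry binding sites for HNF1, HNF4, FOXA and C/EBP factors.

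Promoters were searched for short motifs of these factors in the 250 bases before the RefSeq start on GRCm38.p6, on both strands. RefSeq sequences were on hand for 31 of the 35 genes and for 27025 genes in all, and Ttr, Apoc1, Apoc3 and Trf were not among them. The HNF1 motif GTTAAT was held by 10 of the 31 (32.3%) against 7.49% of all genes, and the C/EBP motif TTGCNNAA by 12 (38.7%) against 10.8%. The FOXA motif TGTTTAC was held by 4 (12.9%) against 3.54%, and the TATA box TATAAA by 7 (22.6%) against 14.3%. The HNF4 core CAAAGTCC was in 0 of the 31, while 1.38% of all genes held it. The searched motifs do not overlap each other in the sequences printed here. These are matches of letters and not measured binding. The following 5 stretches are printed 5′ to 3′ on the strand of the gene, with motif matches on either strand in capitals and bases of annotated exons left out. Afp (chr5:90490464-90490713, plus strand) and Alb (chr5:90460620-90460869, plus strand) are neighbours with very different levels in the E14-Sox2TA/WT library, and both hold an HNF1 motif and a C/EBP motif. Fgb (chr3:83049864-83050113, minus strand), the most abundant fibrinogen chain here, holds the same pair, with the motif read on the other strand. Apoa1 (chr9:46228380-46228579, plus strand) and Amn (chr12:111270846-111271094, plus strand) hold none of the 5 motifs in the stretch shown, which for Apoa1 ends 51 bases before the start. Whether the motifs bear on the levels in the libraries was not tested.
Afp: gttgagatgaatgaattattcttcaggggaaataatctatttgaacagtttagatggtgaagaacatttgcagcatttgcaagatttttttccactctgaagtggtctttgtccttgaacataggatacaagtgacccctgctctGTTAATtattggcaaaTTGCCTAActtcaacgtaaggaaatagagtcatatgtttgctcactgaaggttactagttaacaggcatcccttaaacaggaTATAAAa
Alb: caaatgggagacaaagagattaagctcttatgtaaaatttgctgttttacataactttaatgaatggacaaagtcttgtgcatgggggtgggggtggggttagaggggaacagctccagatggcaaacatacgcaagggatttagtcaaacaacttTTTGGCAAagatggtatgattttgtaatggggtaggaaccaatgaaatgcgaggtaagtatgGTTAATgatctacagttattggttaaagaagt
Fgb: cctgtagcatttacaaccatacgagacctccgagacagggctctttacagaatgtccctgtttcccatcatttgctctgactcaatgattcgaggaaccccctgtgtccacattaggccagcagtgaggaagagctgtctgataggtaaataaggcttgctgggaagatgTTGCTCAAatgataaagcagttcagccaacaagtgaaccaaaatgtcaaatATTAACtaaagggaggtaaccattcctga
Apoa1: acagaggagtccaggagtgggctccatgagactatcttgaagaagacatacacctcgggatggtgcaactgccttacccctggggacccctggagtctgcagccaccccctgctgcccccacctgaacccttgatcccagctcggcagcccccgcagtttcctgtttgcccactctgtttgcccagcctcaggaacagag
Amn: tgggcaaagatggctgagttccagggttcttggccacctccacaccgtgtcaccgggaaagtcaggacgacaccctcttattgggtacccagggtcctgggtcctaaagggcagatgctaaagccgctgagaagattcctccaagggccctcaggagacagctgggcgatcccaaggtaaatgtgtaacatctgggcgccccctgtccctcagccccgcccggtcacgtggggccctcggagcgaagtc
In Afp the motif begins 105 bases, the C/EBP motif 89 bases and the TATA box 7 bases before the start. In Alb the C/EBP motif begins 94 bases and the motif 32 bases before it, and in Fgb these distances are 80 and 29 bases.

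Gene rows summed to 50529171 reads for E14 and to 49030281 reads for E14-Sox2TA/WT. With 1 library per group, no difference between the libraries has a replicate check among them, and no p-value was computed. By quantitative PCR of teratomas, the study reported mesendoderm markers, with Afp, Foxa2 and Sox17 among those measured, as significantly higher in E14-Sox2TA/WT. Ratios are given as E14-Sox2TA/WT over E14 with 95% Clopper-Pearson intervals of the read counts, which cover counting error only and compare these libraries, not the conditions. The libraries also differed outside the listed genes. Sox2 had a TPM of 246 in E14 and 130 in E14-Sox2TA/WT, the pluripotency gene Pou5f1 had 19.0 and 304, and 5 Y-linked genes together had 5999 reads and 0 reads. Whether these differences bear on the genes described here was not tested.

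TPM was higher in the E14-Sox2TA/WT library for 34 of the 35 genes, Apoe among them, whose ratio of 1.04 fell below 1 under other scalings, and Apoh was listed at 0 reads in both libraries. All 27 genes with reads in both libraries had a counting interval wholly above 1 on the TPM scale. The study's rule, a fold change above 2 for genes that reach a TPM of 10 in either library, was passed by 14 of the 18 genes it could test, all of them higher in E14-Sox2TA/WT. Over all 11578 genes tested, 1253 (10.8%) were higher and 2167 (18.7%) were lower by this rule, and 0 of the 18 were lower. The study reported fewer genes in both directions for its teratomas, so these shares are not its own. Why the numbers differ was not tested. Of the 18 genes, 14 reached a TPM of 10 in the E14-Sox2TA/WT library only, so that library admitted them to the test and the count of 14 is a description. Among the 4 that also reached 10 in the E14 library (Apoe, Trf, Dab2 and Vtn), 2 were more than 2-fold higher, Trf and Dab2, against 4.58% of all such genes. Lowering the limit to a TPM of 1 in either library gave 25 of 30 genes more than 2-fold higher, against 19.3% of all genes. When E14 itself had to reach a TPM of 1, the numbers were 11 of 15 against 10.9%. Log2 ratios were taken of TPM + 1. Their median was 2.18 over the 30 genes, and over the 18558 genes that passed the same limit it was -0.058. In bulk tissue, fewer cells of a type and less RNA per cell cannot be told apart.

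**Figure D1:**
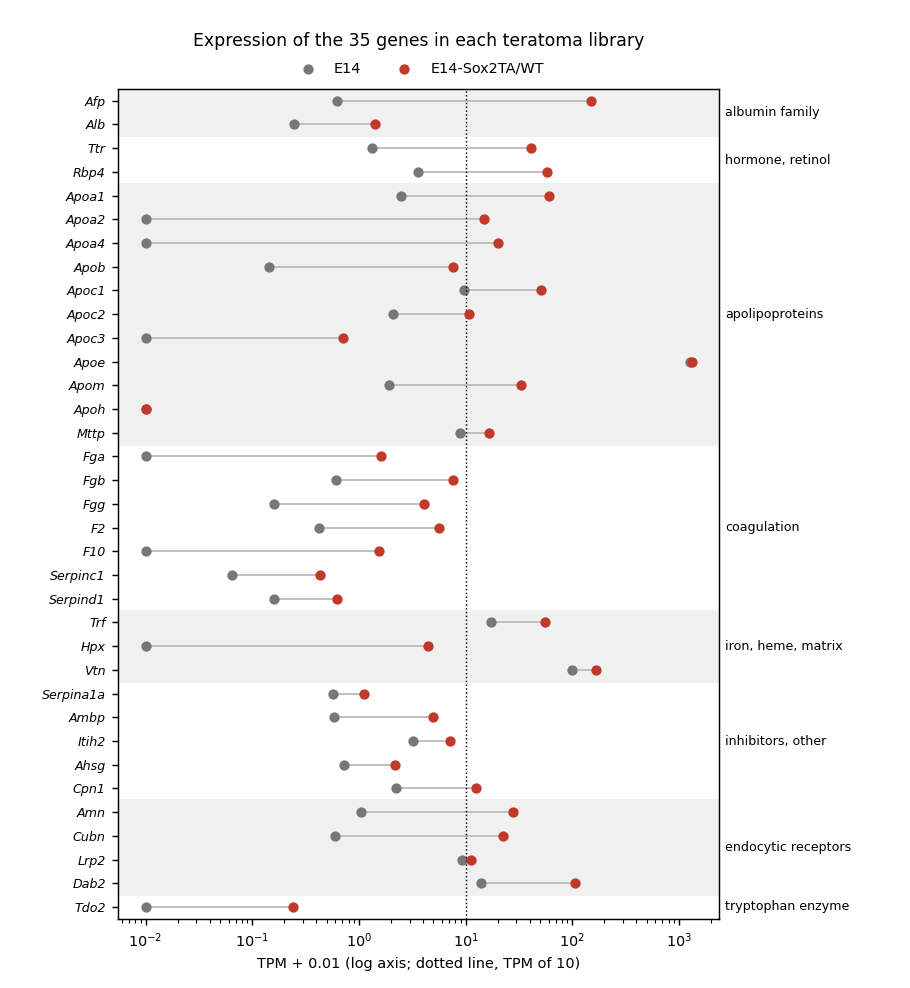
TPM of the 35 genes in E14 (grey) and E14-Sox2TA/WT (red), 1 library each, with 0.01 added so that 0 can be drawn on the log axis; the dotted line is a TPM of 10. The red point lies to the right of the grey point for 34 genes, Apoe lies far above the rest in both libraries, and Apoh is at 0 in both.

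The albumin family held the largest ratio among listed genes with reads in both libraries. Afp, the fetal relative of albumin and a classic product of visceral endoderm, had 31 reads in E14 and 8490 in E14-Sox2TA/WT. Its TPM was 0.614 and 151, a ratio of 247 (interval 174 to 364). On the log2 scale of TPM + 1, which shrinks the ratio of genes with a low TPM, it ranked 1 among the 11578 genes tested. Alb, the main plasma protein of the adult, had 12 and 79 reads and a TPM of 0.236 and 1.42, a ratio of 6.0 (3.25 to 12.1). Alb therefore stayed close to a TPM of 1 in the library in which Afp exceeded 100 TPM, although the genes are 14.11 kb apart. On GRCm38.p6, Alb (NCBI gene 11657) lies on chromosome 5 from 90460870 to 90476602 and Afp (NCBI gene 11576) from 90490714 to 90508907.

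Carriers of thyroid hormone and retinol were also higher in E14-Sox2TA/WT. Ttr, transthyretin, which carries thyroxine and the retinol-binding protein, had 39 and 1349 reads and a TPM of 1.32 and 41.1, a ratio of 31.1 (22.7 to 44.0). Rbp4, the retinol-binding protein itself, had 107 and 1663 reads and a TPM of 3.57 and 57.6, a ratio of 16.2 (13.3 to 19.8). Ttr is also made by choroid plexus epithelium, and the 4 choroid plexus markers other than Ttr summed to a TPM of 18.3 and 67.1. Of these, Folr1 had a TPM of 7.95 and 49.6 and Aqp1 9.86 and 16.8, whereas Kl (0.0457 and 0.276) and Kcnj13 (0.401 and 0.438) stayed below 1 in both. Their part in the values of Ttr was not tested.

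Among the 11 genes of apolipoproteins and lipid transfer, 8 could be tested by the rule and 6 passed it, against 10.8% of all genes tested. Only Apoe reached a TPM of 10 in E14, so the 6 were admitted by the library in which they are high. Apoa1, the main protein of high-density lipoprotein (HDL), had 59 and 1622 reads and a TPM of 2.45 and 61.1, a ratio of 25.0 (19.3 to 33.0). Apom, which carries sphingosine-1-phosphate on HDL, had 36 and 682 reads and a TPM of 1.92 and 33.2, a ratio of 17.3 (12.4 to 25.0). Apoa2, another HDL protein, had 0 and 212 reads and reached a TPM of 15.01 in E14-Sox2TA/WT. Apoa4, made by yolk sac and intestine, had 0 and 896 reads and reached 20.01. Taking 3 reads as the most that a count of 0 allows, Apoa2 was at least 63.3-fold and Apoa4 at least 267-fold higher in E14-Sox2TA/WT.

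Such bounds rest on the entry of 0 being a true count, and in the E14 column entries of 0 outnumbered entries of 1 to 3 reads. Of 5728 protein-coding genes with 100 to under 1000 reads in E14-Sox2TA/WT, 108 were listed at 0 in E14 and 19 at 1 to 3 reads. In the other direction, of 4713 genes with 100 to under 1000 reads in E14, 6 were at 0 and 4 at 1 to 3 reads. Among the listed genes, this touches the 7 at 0 in the E14 library alone, Apoa2, Apoa4, Apoc3, Fga, F10, Hpx and Tdo2. It applies as well to comparison genes and markers listed at 0 in E14 alone.

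Apob, the scaffold protein of very low-density lipoproteins and chylomicrons, had 44 and 2830 reads. Its TPM of 0.135 and 7.58 stayed below the limit of 10, and its ratio was 56.2 (41.8 to 77.5). Mttp, the transfer protein that loads lipid onto Apob, had 780 and 1823 reads and a TPM of 8.87 and 16.6. Its ratio of 1.87 (1.72 to 2.04) was short of 2-fold on TPM and past it on FPKM (2.15) and on read counts scaled by library total (2.41). Apob and Mttp are also used by enterocytes, whose 5 markers summed to a TPM of 0.928 and 10.3. Of these, Fabp2, Sis and Cdx1 were at 0 reads in E14, and Sis stayed at a TPM of 0.0124 in E14-Sox2TA/WT, where Vil1 had 4.19 and Lct 0.0689. Their part in these values was not tested.

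The small C apolipoproteins adjust how lipoproteins are broken down. Apoc1 had 104 and 596 reads and a TPM of 9.71 and 50.7, a ratio of 5.22 (4.23 to 6.49). Apoc2, the cofactor of lipoprotein lipase, had 37 and 212 reads and a TPM of 2.08 and 10.8, a ratio of 5.21 (3.66 to 7.61). Apoc3, an inhibitor of that lipase, had 0 and 11 reads and a TPM of 0.702 in E14-Sox2TA/WT, which makes it at least 3.28-fold higher. Apoa2, Apoc1 and Apoc3 have transcripts under 750 nt, and the 1399 genes of that length with a TPM of 1 had a median log2 ratio 0.49 above that of all genes.

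Apoe was the exception among the abundant apolipoproteins. It encodes a ligand of the LDL receptor that macrophages and glia also make, and it had by far the highest TPM of the list in both libraries. Reads numbered 47032 and 45044 and the TPM was 1261 and 1315, a ratio of 1.04 (1.03 to 1.06) that turned to 0.987 with read counts scaled by library total and to 0.903 with TMM factors, and stood at 1.197 on FPKM. The 4 macrophage markers summed to a TPM of 220 and 316, and their part in Apoe was not tested. Without Apoe, the summed TPM of the other 34 genes was 181 in E14 and 910 in E14-Sox2TA/WT. Apoh, which encodes the phospholipid-binding beta-2-glycoprotein I, had 0 reads in both libraries.

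**Figure D2:**
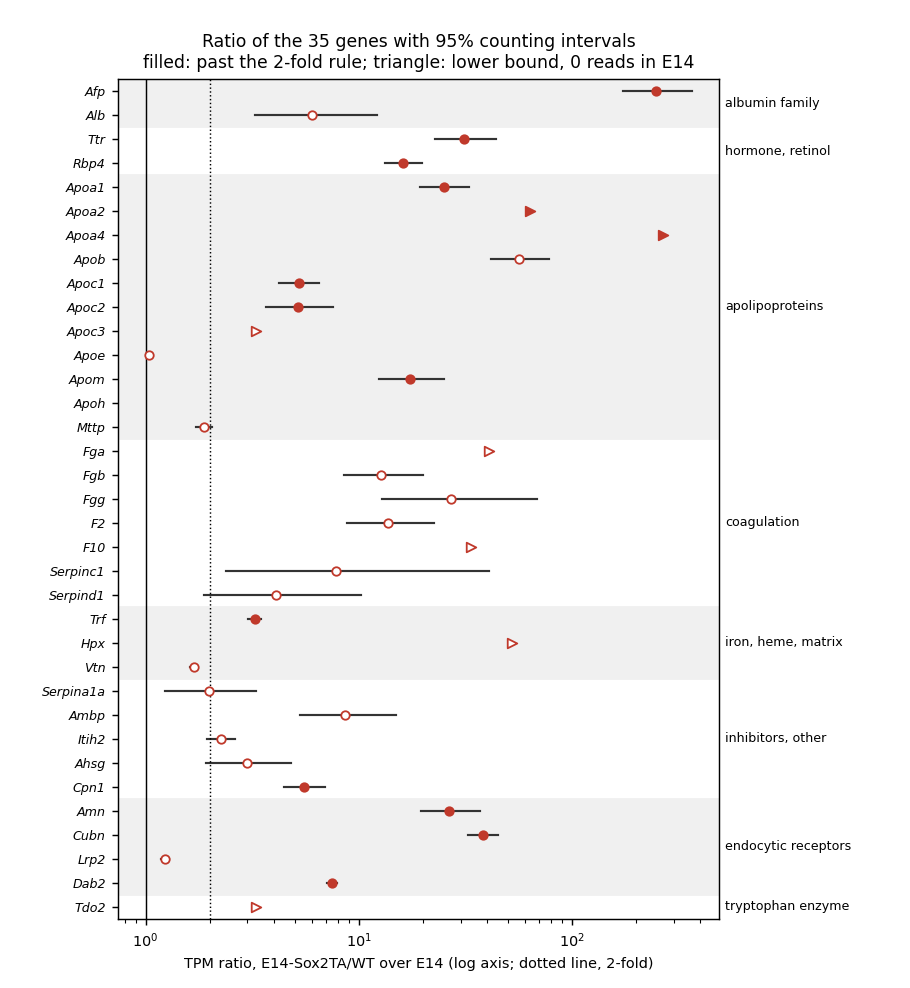
Ratio of TPM in E14-Sox2TA/WT over E14 for each gene on a log axis, with 95% counting intervals as lines; filled symbols passed the rule on fold and TPM, and triangles are lower bounds for genes with 0 reads in E14. Afp lies furthest right among genes with reads in both libraries, at 247, and Apoe lies at 1.04; Apoh has no ratio.

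Several listed genes are close neighbours on a chromosome, and their levels per length differed within a cluster. Apoe, Apoc1 and Apoc2 lie on chromosome 7, with 3.58 kb between Apoe and Apoc1 and 11.54 kb between Apoc1 and Apoc2. Apoc1 and Apoc2 had nearly the same ratio (5.22 and 5.21), and their intervals excluded the ratio of 1.04 of Apoe. Apoa1, Apoc3 and Apoa4 lie on chromosome 9 with gaps of 2.58 and 5.21 kb, and in E14-Sox2TA/WT their TPM was 61.1, 0.702 and 20.01. Apoc3 was thus the lowest of the group although it lies between the others.

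**Figure D3:**
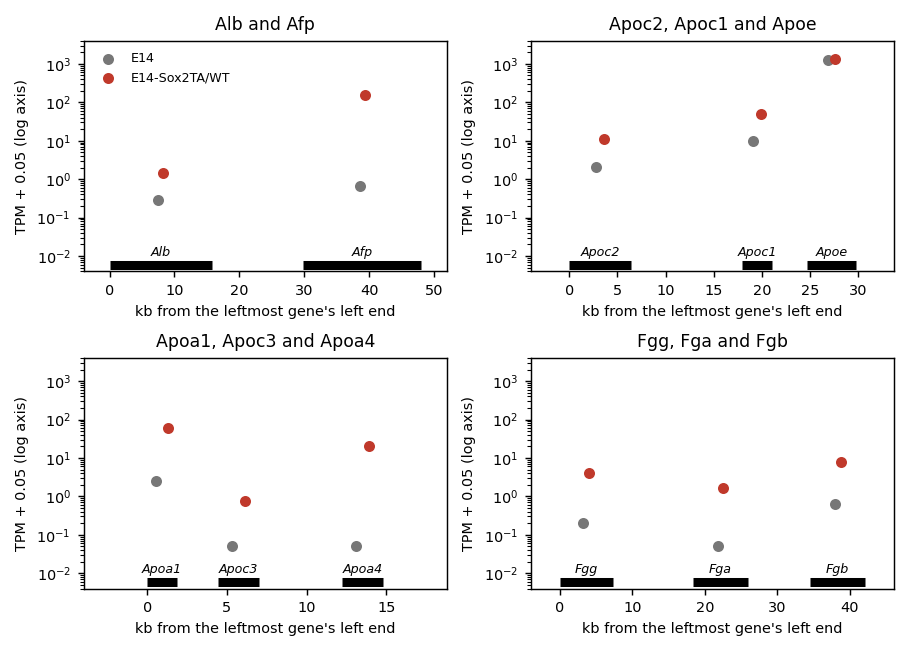
TPM with 0.05 added (log axis) of neighbouring genes in E14 (grey) and E14-Sox2TA/WT (red), placed by distance along the chromosome; black bars are the genes, and the points of a gene are set slightly apart sideways. Red lies above grey for every gene drawn except Apoe, where the points are level (1261 and 1315), and Apoa4, Apoc3 and Fga have 0 reads in E14.

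Genes of fibrinogen and coagulation had low levels. None of the 7 reached a TPM of 10, so the rule did not test them, and their TPM summed to 1.36 in E14 and 21.5 in E14-Sox2TA/WT. Fgb, Fgg and Fga encode the chains of fibrinogen, the precursor of the clot, and are expressed together in hepatocytes. Fgb had 25 and 352 reads and a TPM of 0.600 and 7.66, a ratio of 12.8 (8.51 to 20.01). Fgg had 7 and 189 reads and a TPM of 0.149 and 4.03, a ratio of 27.0 (12.9 to 68.1). Fga had 0 and 137 reads, a TPM of 1.60 in E14-Sox2TA/WT, and was at least 40.9-fold higher there. All 3 chains were therefore present in that library, with Fga the lowest per length.

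F2, prothrombin, had 21 and 308 reads and a TPM of 0.410 and 5.62, a ratio of 13.7 (8.82 to 22.5). F10, the factor that cleaves prothrombin, had 0 and 112 reads and a TPM of 1.54 in E14-Sox2TA/WT, at least 33.4-fold higher. The inhibitors of thrombin had fewer reads than prothrombin in both libraries. Serpinc1, antithrombin, had 3 and 25 reads and a TPM of 0.0541 and 0.424, a ratio of 7.84 (2.39 to 40.6). Serpind1, heparin cofactor II, had 8 and 36 reads and a TPM of 0.149 and 0.611, a ratio of 4.10 (1.88 to 10.2). F2 overlaps Ckap5 (16013 and 9440 reads), Serpind1 overlaps Pi4ka (5654 and 2721) and Apoa2 overlaps Tomm40l (1961 and 1109). How the counting used strand is not given in the sources used here, so reads of these pairs may not be fully separated, and each overlapping gene had more reads in the E14 library.

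Carriers of iron and heme and the matrix protein vitronectin differed in size. Trf, transferrin, the iron carrier of plasma, had 962 and 3485 reads and a TPM of 17.1 and 55.6, a ratio of 3.25 (3.02 to 3.49). Hpx, hemopexin, which binds free heme, had 0 and 175 reads, a TPM of 4.39 in E14-Sox2TA/WT, and was at least 52.2-fold higher. Vtn, vitronectin, a plasma and matrix protein that binds integrins, had 4165 and 7841 reads and a TPM of 99.2 and 167, a ratio of 1.69 (1.62 to 1.75) that did not pass 2-fold. Oligodendrocytes also make transferrin, and their 3 markers summed to a TPM of 114 in E14 and 31.4 in E14-Sox2TA/WT. Mbp carried this sum (112 and 27.4) and Mog had 0.672 and 0.146, while Mobp was higher in E14-Sox2TA/WT (1.24 and 3.84), as Trf was. Their part in Trf was not tested.

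Protease inhibitors and other plasma proteins had smaller ratios. Cpn1, the catalytic subunit of carboxypeptidase N, was the only one of the 5 to reach a TPM of 10. It had 97 and 603 reads and a TPM of 2.24 and 12.4, a ratio of 5.54 (4.47 to 6.94). Ambp, whose product is cut into alpha-1-microglobulin and bikunin, had 18 and 170 reads and a TPM of 0.576 and 4.98, a ratio of 8.64 (5.31 to 14.9). Itih2, the heavy chain that is joined to bikunin, had 239 and 599 reads and a TPM of 3.18 and 7.13, a ratio of 2.25 (1.93 to 2.62). The ratio of Itih2 was thus below that of its partner Ambp, and their counting intervals did not overlap. Ahsg, fetuin-A, a binder of calcium phosphate, had 27 and 89 reads and a TPM of 0.721 and 2.15, a ratio of 2.99 (1.92 to 4.79). Serpina1a, an alpha-1-antitrypsin gene, had 27 and 53 reads and a TPM of 0.558 and 1.11, a ratio of 1.99 (1.23 to 3.29). Its value is uncertain because nearly identical copies can share its reads. Of these copies, Serpina1b had 53 and 196 reads, Serpina1c 24 and 43, Serpina1d 11 and 45, and Serpina1e 8 and 15.

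The 4 genes of the endocytic receptor complex were all testable, and 3 passed the rule, against 10.8% of all genes tested. Of these 3, only Dab2 reached a TPM of 10 in E14, and Cubn and Amn were admitted by E14-Sox2TA/WT alone. Cubn encodes cubilin, the large receptor that binds vitamin B12 with intrinsic factor and many plasma proteins, and Amn encodes amnionless, which brings cubilin to the cell surface. Cubn had 160 and 6775 reads and a TPM of 0.584 and 22.3, a ratio of 38.1 (32.6 to 44.9). Amn had 43 and 1262 reads and a TPM of 1.04 and 27.6, a ratio of 26.5 (19.6 to 36.9). The partners stood at similar levels per length in the E14-Sox2TA/WT library. Cubn lies on chromosome 2 from 13276338 to 13491876 and Amn on chromosome 12 from 111271096 to 111276426. Dab2, the clathrin adaptor of the complex, which is also used in other cells, had 1454 and 11595 reads and a TPM of 14.1 and 105, a ratio of 7.47 (7.07 to 7.89). Lrp2, megalin, a receptor that is also abundant in neural epithelium, had 3399 and 4663 reads and a TPM of 9.15 and 11.2. Its ratio was 1.23 (1.18 to 1.28), and 1.41 on FPKM, so megalin did not pass the rule although cubilin and amnionless did. The complex also serves the proximal tubule of the kidney, whose markers Slc34a1, Slc5a12 and Slc22a6 were all below a TPM of 1 in both libraries. The part of such cells in the values of the complex was not tested.

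Tdo2, tryptophan dioxygenase, the enzyme that opens the breakdown of tryptophan in liver, had 0 and 11 reads. Its TPM of 0.233 in E14-Sox2TA/WT was the lowest of the genes detected there, and it was at least 3.28-fold higher than in E14.

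**Figure D4:**
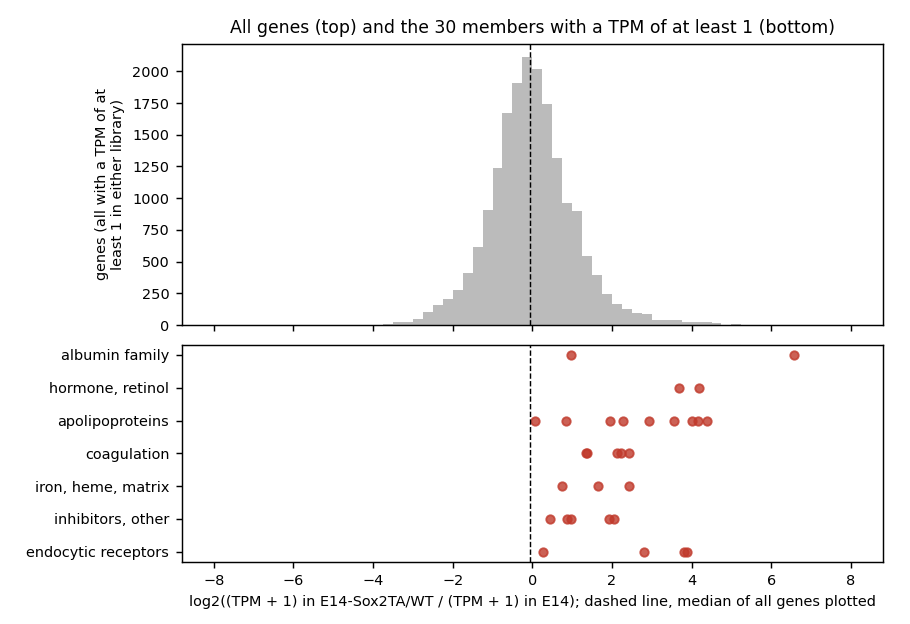
Log2 ratio of E14-Sox2TA/WT over E14, taken of TPM + 1, for the 18558 genes that reached a TPM of 1 in either library (top, number of genes per bin) and for the 30 listed genes that passed the same limit (bottom, 1 point per gene, in rows by role). The dashed line is the median of all genes, -0.058, and all 30 points lie to its right.

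The genes span 15 chromosomes. Chromosome 8, which holds F10, had a median log2 ratio 0.43 below that of all genes (-0.43), and chromosome 15, which holds Dab2, one 0.41 above it. Leaving out F10 and Dab2, the listed genes on these chromosomes, left the median of the list at 2.18. It could not have moved, since F10 (1.34) lies below the median and Dab2 (2.82) above it. By role, the median log2 ratio was 3.93 for the carriers of thyroid hormone and retinol, 3.77 for the albumin family, 3.31 for the endocytic complex, 2.92 for apolipoproteins and lipid transfer, 2.13 for coagulation, 1.64 for the iron, heme and matrix carriers and 0.96 for the protease inhibitors and other plasma proteins. Adding 1 to each TPM lowers the ratio of genes with a TPM below 1, which in the E14 library were 20 of the 35.

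The name of the list covers visceral endoderm and liver, and markers of both were examined. Of 10 visceral endoderm markers, 5 (Afp, Ttr, Amn, Cubn and Dab2) are on the list, and their values have been given. The other 5 markers all reached a TPM of 1 in E14-Sox2TA/WT and 2 did so in E14, and they summed to 38.9 in E14 and 90.2 in E14-Sox2TA/WT. Among them, Hnf4a had a TPM of 0.288 in E14 and 4.33 in E14-Sox2TA/WT, Gata4 0.511 and 13.5, and Gata6 0.718 and 6.96. Sox17 had 2.15 and 8.16, and Foxa2 had 35.3 and 57.2, which was most of both sums. These 5 also stand on the comparison list of endoderm and liver transcription factors, so they are not particular to visceral endoderm. Of 8 hepatocyte markers, 6 stayed below a TPM of 1 in E14-Sox2TA/WT, and the 7 other than Alb summed to 5.46 and 70.5. Cyp3a11 and Slc10a1 were at 0 reads in both libraries, Cps1 had a TPM of 0.366 and 0.392, and Tat and Cyp2e1 had 0 reads in E14 and a TPM of 0.137 and 0.469 in E14-Sox2TA/WT. Asgr1 had 0.253 and 0.499. The hepatocyte sum was carried by Arg1, arginase of the urea cycle, which macrophages and other cells also make, at 4.84 and 69.0. Most hepatocyte markers were thus low or at 0 in E14-Sox2TA/WT, the library in which 14 listed genes were higher by the rule. Some listed genes of secreted proteins were low there too, such as Alb (1.42), Serpinc1 (0.424) and Apoh (0).

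Other genes of the same pathways were taken from lists drawn up for comparison. As with the listed genes, a gene that reached a TPM of 10 in E14-Sox2TA/WT alone was admitted by the library in which it is high, so the number that reached 10 in E14 is given too, to be read beside the 4.58% of all such genes that were higher. Of 49 other plasma protein genes in the table, 22 were below a TPM of 1 in both libraries and 9 could be tested, of which 6 were higher and 3 lower by the rule. Of the 7 that reached 10 in E14, 4 were higher. The median log2 ratio was 1.22. Serping1, the inhibitor of complement C1, had a TPM of 20.8 and 66.4, while Agt, angiotensinogen, had 38.7 and 5.19 and Itih3, another heavy chain joined to bikunin, had 15.8 and 1.08. Agt and Itih3 thus lay in the opposite direction to the 14 listed genes. Of 29 hepatocyte enzymes and transporters, 21 were below a TPM of 1 in both libraries, and the 3 that could be tested were higher by the rule, among them Arg1 and Ass1 (5.13 and 50.4), which makes argininosuccinate. None of the 3 reached 10 in E14. TPM was higher in E14-Sox2TA/WT for 22 of the 29, and the median over the 8 that reached a TPM of 1 was 1.5.

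Of 20 transcription factors of endoderm and liver, 7 could be tested, with 1 higher (Gata4) and 2 lower by the rule, and the median was 1.09. Of the 4 that reached 10 in E14, 0 were higher. Foxa1 had a TPM of 43.9 and 42.0, and Foxa2 had a ratio of 1.62 (1.53 to 1.72), so the FOXA factors with the highest TPM did not pass 2-fold. Of 20 visceral endoderm markers not on the list, 14 could be tested and 13 were higher by the rule, with a median of 1.61. Of the 14, 9 reached 10 in E14-Sox2TA/WT alone, and 4 of the 5 that reached it in E14 were higher. Rhox5, a homeobox gene of extraembryonic tissue, had a TPM of 9.08 and 337, and Spink1, a trypsin inhibitor, 10.9 and 207. Of 16 receptors and partners in the table, Rbp4 itself among them, 13 could be tested, with 4 higher and 3 lower and a median of 0.25. Of the 11 that reached 10 in E14, 2 were higher. Stra6, the receptor for Rbp4, had 4.18 and 17.1, Pltp, the phospholipid transfer protein, 64.3 and 122, and Lrpap1, the chaperone of megalin, 95.3 and 114.

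**Figure D5:**
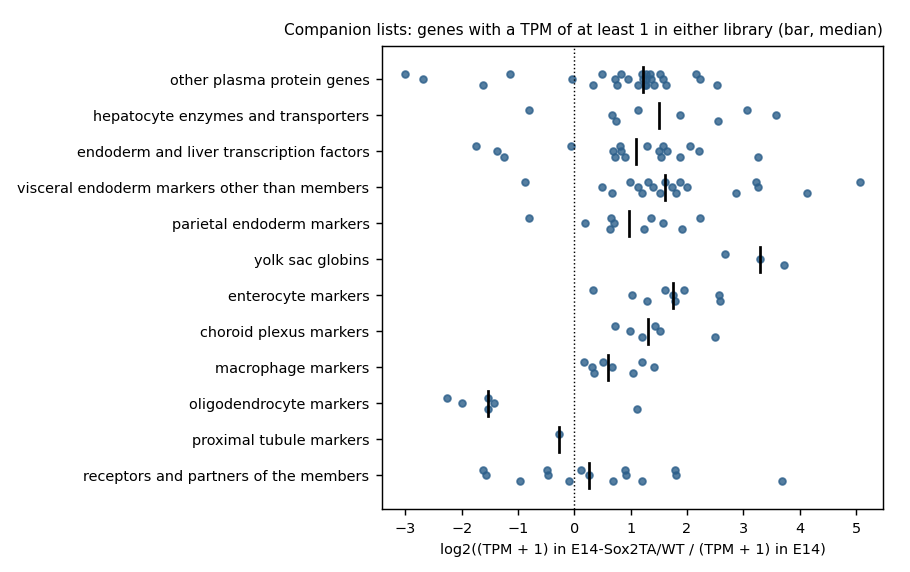
Log2 ratio of E14-Sox2TA/WT over E14, taken of TPM + 1, for genes of 12 comparison lists that reached a TPM of 1 in either library; points are genes, set slightly apart vertically, black bars are list medians and the dotted line is 0. Visceral endoderm markers have a median of 1.61, receptors and partners 0.25 and oligodendrocyte markers -1.53.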

How the data were processed

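Per the labels, the tissue was teratoma and polyadenylated RNA was sequenced, 1 library per group. The authors deposited raw read counts, TPM, and FPKM (scaled by length and depth), for genes on mm10. The submitters' processing notes name bcl2fastq 2.20.0, Trimmomatic, HISAT2 2.1.0 and StringTie 2.1.3b, and the builds hg19 and mm10, without their roles. Use of strand in counting is not given in the sources used here. Of 45777 gene identifiers, 45675 matched RefSeq on GRCm38.p6, which gave positions and promoters.

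Ratios of TPM were computed for all genes, and the study's rule (fold above 2, TPM of 10 or more in either library) was applied without a test. Depth was 50529171 and 49030281 reads, and 95% Clopper-Pearson intervals give the counting error. A count of 0 allows up to 3 reads. The median log2 ratio used TPM + 1 and genes that reached a TPM of 1. All 35 genes were named. From each of 12 comparison lists, the 2 genes highest in TPM and the 2 with the largest log2 ratio were named, and cell type markers were listed separately. Some items of these lists are not reported here. Promoters to print, and the Serpina1 copies, were picked after their values were seen. The genes and lists were chosen with earlier results of these data known.

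Alternatives covered pseudocount, filters, fold, FPKM, library total, edgeR TMM and median-of-ratios factors. Scripts were tested on simulated data. The software was edgeR 4.0.16 in R 4.3.3, and scipy 1.17.1 and pandas 2.3.3 in Python 3.11.15.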

Additional observations from a re-analysis of the deposited data

How the results depend on the processing

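Of 39 alternative values of the counts and the median of the list, 30 stayed close to the reported value and 9 moved. Those that stayed close include every count of lower genes, which was 0 throughout. The 9 that moved were all counts of higher genes or medians. The 14 genes higher by the rule became 25 with a limit of TPM 1 in either library, 29 without a filter, 2 with a limit of TPM 10 in both libraries and 2 with that limit in E14 alone. Under the remaining settings this count was 11 to 16, and the count of lower genes was 0 in all settings run. The median log2 ratio of 2.18 became 3.48 with a pseudocount of 0.1, 1.17 with a pseudocount of 5, 1.75 on FPKM, 3.18 over genes that reached TPM 10 and 1.94 without a filter, and was above 0 in each. Of 108 ratios of single genes under another scaling, 88 lay inside the counting interval and 20 outside it. Mttp passed 2-fold under every other scaling run, and Apoe was below 1 under the 3 scalings of read counts. The limits on the E14 library alone and the setting of counts of 0 to 3 reads, which left the median at 2.18, were chosen after seeing the data. The latter setting could not move the median, because no gene listed at 0 crosses the middle of the list with 3 reads. It says nothing about entries of 0 that stand for more reads. No paired analysis was possible because each group holds only 1 library, and so no library could be left out. Counts of under 20 reads in E14 (Alb, Fgg, Serpinc1, Serpind1 and Ambp) leave wide intervals.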

Other observations

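Markers of neighbouring extraembryonic tissues were also measured. Of 10 parietal endoderm markers, genes of the cells that lay down Reichert's membrane, 10 could be tested, of which 5 were higher in E14-Sox2TA/WT by the rule, with a median log2 ratio of 0.97. Of the 8 that reached a TPM of 10 in E14, 3 were higher. Sparc, a secreted matrix protein, had a TPM of 516 in E14 and 803 in E14-Sox2TA/WT, and Col4a1, a collagen IV chain, 123 and 193. Lama1, a laminin chain, had 9.98 and 40.3, and Thbd, thrombomodulin, 3.18 and 18.7. Whether these values came from parietal endoderm or from other cells was not tested. The embryonic globins of yolk sac erythroid cells were listed at 0 reads in E14. In E14-Sox2TA/WT, Hbb-bh1 had 201 reads and a TPM of 12.3, at least 60.0-fold higher. Hbb-y had 146 reads and a TPM of 8.76 there, at least 43.6-fold higher. Both bounds rest on the E14 entry of 0 being a true count, which is in doubt as described for the listed genes.

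Of 12 enterocyte markers, 2 could be tested and 1, which reached 10 in E14-Sox2TA/WT alone, was higher by the rule, with a median of 1.75. Anpep, an aminopeptidase of the brush border, had a TPM of 4.07 and 14.4, Dgat1, which makes triglyceride, 30.1 and 38.1, and Muc13, a membrane mucin, 0.0727 and 5.32. Cdx1, an intestinal transcription factor, had 0 and 234 reads, and its entry of 0 is open to the same doubt as those of the globins. Of 10 choroid plexus markers, 3 of the 4 tested were higher, 2 of them admitted by E14-Sox2TA/WT alone, with a median of 1.31. They were Folr1, Calml4 (14.4 and 34.2) and Clic6 (8.67 and 26.6). Of 8 macrophage markers, 8 could be tested and 3 were higher, with a median of 0.59. Of the 6 that reached 10 in E14, 1 was higher. Lyz2, lysozyme, had 457 and 943, C1qa 150 and 215, Cd14 5.17 and 15.4 and Mrc1 8.42 and 20.7. Of 7 oligodendrocyte markers, 4 could be tested and all 4 were lower, with a median of -1.53. Mbp, a myelin protein, had 112 and 27.4, Cnp 107 and 36.3 and Olig1 88.2 and 17.6. Of 6 proximal tubule markers, 0 reached a TPM of 10, and Slc13a3 had 2.43 and 1.82.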
